A study of Mus musculus with 24 samples.

Results

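The type I interferon response was followed through 45 genes that interferon alpha and beta switch on. The genes were taken by symbol from a list, and all 45 were found among the 24421 genes of the count table and passed the filter on low counts in every comparison. RNA was measured in T cells that were sorted as CD8 or CD4 cells from the marrow of mice of the CByB6F1 hybrid that had immune-mediated bone marrow failure (BMF). In this model of aplastic anaemia, T cells attack the marrow. The mice were female and 2 to 5 months old. They had received low dose ruxolitinib with cyclosporine (RUX+CSA), cyclosporine alone (CSA), ruxolitinib alone (RUX) or no drug (untreated). Every group had BMF, untreated mice included, so healthy marrow was not part of the comparisons. Each of the 24 libraries came from T cells of 2 to 3 mice of 1 group that were pooled, and each of the 8 groups had 3 pools. CD8 pools are numbered 1 to 12 and CD4 pools 13 to 24.

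Type I interferons bind a receptor made of IFNAR1 and IFNAR2, which carries the kinases TYK2 and JAK1. Their activity leads to the assembly of ISGF3, a complex with STAT2 and IRF9 among its parts, which binds interferon-stimulated response elements (ISREs) in the promoters of target genes. Ruxolitinib inhibits JAK1 and JAK2. Cyclosporine inhibits calcineurin, the phosphatase that lets NFAT factors enter the nucleus after T cell receptor signalling. Many of the target genes encode proteins that sense or block viral RNA, and some of them are also switched on by interferon gamma, the main interferon of activated T cells.

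Libraries held 16.9 to 34.6 M read pairs, and a count of 3 in a library, the floor used here, stood for 0.0868 to 0.177 counts per mega read pairs (CPM). The sort labels were checked on the coreceptors. Cd8a lay between 730.3 and 1149 CPM in CD8 libraries and between 1.16 and 7.79 CPM in CD4 libraries, while Cd4 lay between 0.403 and 1.16 CPM in CD8 libraries and between 1175 and 1721 CPM in CD4 libraries. Markers of other marrow cells were present in most libraries, and their amount differed between treatments. The summed level of 14 neutrophil markers was 4374 to 5899 CPM in CD8 RUX+CSA pools, 858 to 3453 in CSA, 1701 to 3135 in RUX and 12.9 to 1472 in untreated pools. In CD4 cells it was 8260 to 10312 CPM in RUX+CSA, 3481 to 17028 in CSA, 4007 to 7818 in RUX and 96.9 to 8667 in untreated pools. The markers at 0 were 7 of 14 in CD8 untreated 2, 5 of 14 in CD4 untreated 14 and none in the other libraries. Erythroid, B cell and basophil and mast cell markers moved with RUX+CSA in CD8 cells as well. The 12 erythroid markers summed to 82.1 to 269.5 CPM in RUX+CSA and 6.37 to 31.1 in untreated pools (4 of 12 at 0 in each RUX+CSA pool, 4 to 7 in untreated pools). The 10 B cell markers summed to 7.77 to 50.5 CPM in RUX+CSA and 2.40 to 3.73 in untreated pools (0 to 2 and 3 to 4 at 0), and the 6 basophil and mast cell markers to 47.2 to 78.6 CPM in RUX+CSA and 0.0806 to 1.06 in untreated pools (0 and 1 to 5 at 0). In a bulk library, fewer cells of a type and less RNA per cell cannot be told apart.

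A pair of libraries, CD8 RUX 7 and CD4 CSA 18, lay farthest from their groups in the 45 genes. In CD8 RUX 7, 35 of 45 genes were below both other RUX pools, where 45.4% of all 12684 tested genes were. The median of the 45 differences from the mean of the other RUX pools was -0.59 on the log2 scale, against -0.02 over all tested genes. For 27 of the 45 genes this library was the lowest of all 12 CD8 libraries, against 17.9% of tested genes. In CD4 CSA 18, 38 of 45 genes were below both other CSA pools, where 36.7% of 13175 tested genes were, with a median of -0.65 against 0.00 over all genes. It was the lowest CD4 library for 30 of the 45 genes, and for 13.3% of tested genes. The mean log2 CPM of the 45 genes was 4.83 in CD8 RUX 7 and 5.48 in each of the other CD8 RUX pools, and 5.22 in CD4 CSA 18 against 5.95 and 5.91 in CD4 CSA 16 and 17. Of the 45 genes, 31 were below both other pools in both libraries, among them the ISGF3 parts Stat2 and Irf9, while Ifitm2, Sp100 and Slfn1 were in neither. In the other 22 libraries the median difference lay between -0.29 and 0.35, and none was the lowest of its cell type for more than 4 of the 45 genes. Some of them still lay to one side of their group. CD4 RUX 20 was below both other RUX pools in 32 of 45 genes (33% of tested genes), CD4 untreated 14 below both other untreated pools in 30 (40.6%), and CD8 CSA 5 above both other CSA pools in 34 (28.6%). Results that change without CD8 RUX 7 are given with and without it.

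**Figure D1:**
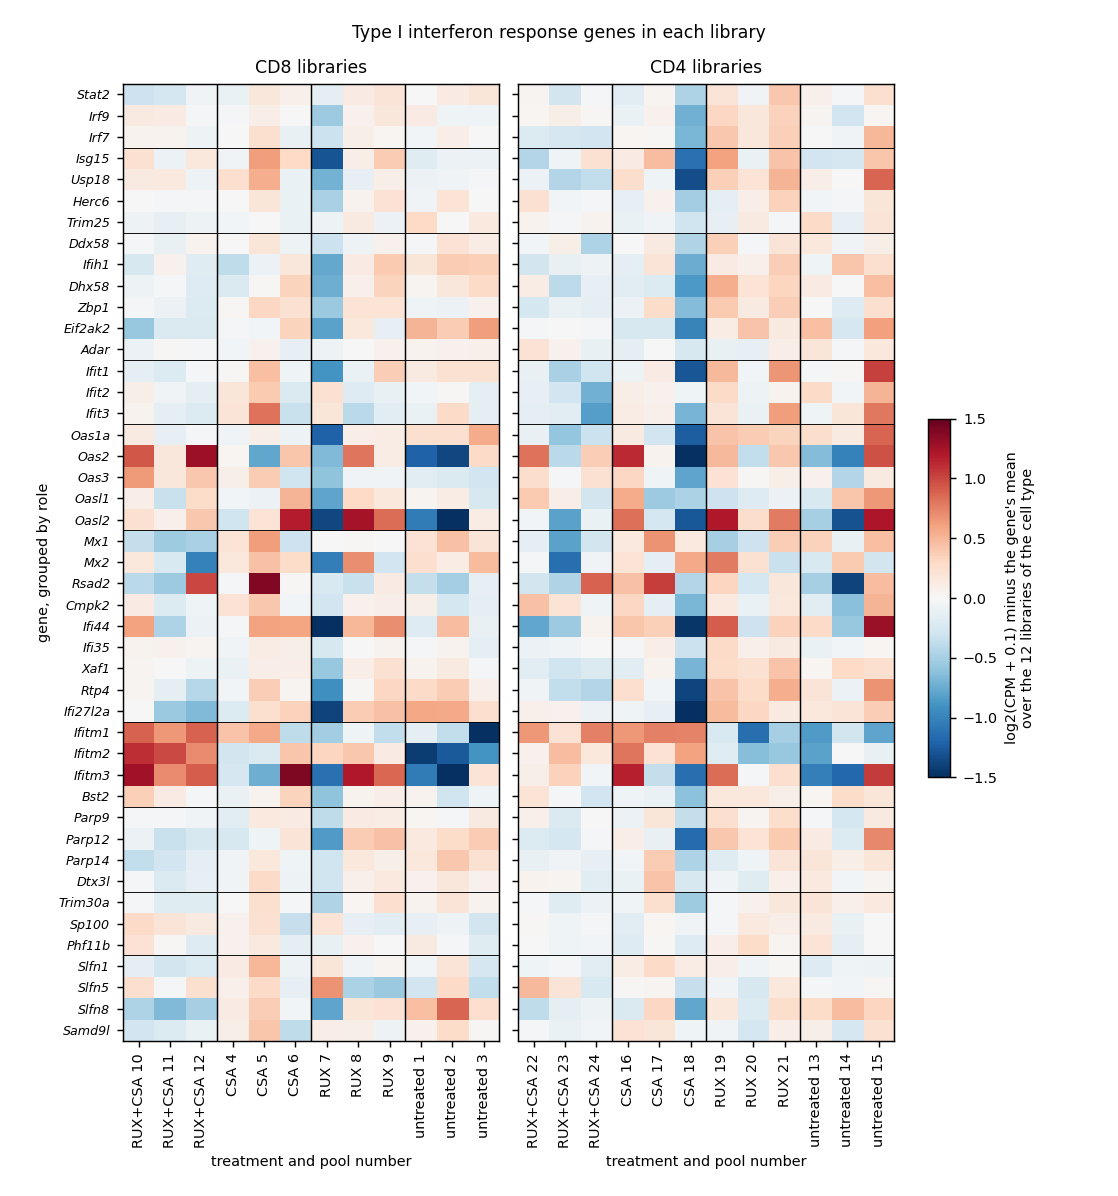
Each row is 1 of the 45 genes, grouped by role, and each column 1 library, with CD8 libraries on the left and CD4 libraries on the right. Colour gives log2(CPM + 0.1) minus the mean of that gene over the 12 libraries of the cell type. CD8 RUX 7 and CD4 CSA 18 are blue in most rows, and Ifitm1, Ifitm2 and Ifitm3 are red in the CD8 RUX+CSA pools.

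Promoter sequences are shown for 3 interferon-induced transmembrane genes, among which Ifitm2 gave the largest change with RUX+CSA, and for Oas3, Eif2ak2 and Slfn8, which passed the test in CD8 cells, as did Ifitm1 and Ifitm2. RefSeq windows of 300 bases on build GRCm38.p6, from 250 bases before to 50 bases after the start, were found for 35 of the 45 genes. Capitals mark the core letters of an ISRE, GAAANNGAAA, searched on both strands and placed by its first base from the start. Ifitm2 (chr7:140955912-140956211, minus strand) has 1 match at -46, and Ifitm3 (chr7:141010695-141010994, minus strand) has matches at 2 and 19. Ifitm1 (chr7:140967826-140968125, plus strand) has none. Its window lies inside the gene as counted (140967429 to 140969827), so the bases before the counted gene were not searched. Oas3 (chr5:120777610-120777909, minus strand) has a match at -75 and Eif2ak2 (chr17:78882523-78882822, minus strand) at 18. For Slfn8 (chr11:83020761-83021060, minus strand) the first of 2 windows is shown, with a match at -48 on the opposite strand.
Ifitm2: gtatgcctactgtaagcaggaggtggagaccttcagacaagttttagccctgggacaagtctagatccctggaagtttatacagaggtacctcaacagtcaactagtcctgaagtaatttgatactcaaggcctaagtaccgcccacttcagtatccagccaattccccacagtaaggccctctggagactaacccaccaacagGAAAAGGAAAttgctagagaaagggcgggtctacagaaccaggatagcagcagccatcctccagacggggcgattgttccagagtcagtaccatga
Ifitm1: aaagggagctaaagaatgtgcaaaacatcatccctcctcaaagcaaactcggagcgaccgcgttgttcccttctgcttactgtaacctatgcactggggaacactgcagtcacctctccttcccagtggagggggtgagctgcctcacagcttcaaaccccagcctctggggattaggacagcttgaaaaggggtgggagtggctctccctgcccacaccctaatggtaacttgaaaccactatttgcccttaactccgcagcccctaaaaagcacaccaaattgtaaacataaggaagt
Ifitm3: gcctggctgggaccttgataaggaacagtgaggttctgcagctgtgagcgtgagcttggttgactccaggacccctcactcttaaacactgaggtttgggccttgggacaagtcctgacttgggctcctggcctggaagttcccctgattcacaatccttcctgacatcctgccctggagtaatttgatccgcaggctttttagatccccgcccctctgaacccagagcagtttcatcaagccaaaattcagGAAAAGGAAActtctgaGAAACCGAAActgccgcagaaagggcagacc
Oas3: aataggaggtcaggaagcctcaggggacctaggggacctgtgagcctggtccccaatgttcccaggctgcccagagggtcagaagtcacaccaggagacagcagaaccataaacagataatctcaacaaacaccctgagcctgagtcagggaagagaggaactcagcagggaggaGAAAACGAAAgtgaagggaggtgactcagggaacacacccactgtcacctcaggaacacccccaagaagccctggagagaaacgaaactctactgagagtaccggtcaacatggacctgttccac
Eif2ak2: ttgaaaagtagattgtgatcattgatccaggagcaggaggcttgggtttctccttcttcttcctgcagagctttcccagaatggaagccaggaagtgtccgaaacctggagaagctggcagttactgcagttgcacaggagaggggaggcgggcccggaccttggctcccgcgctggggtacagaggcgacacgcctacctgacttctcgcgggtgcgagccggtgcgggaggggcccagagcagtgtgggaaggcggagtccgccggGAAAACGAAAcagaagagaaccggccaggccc
Slfn8: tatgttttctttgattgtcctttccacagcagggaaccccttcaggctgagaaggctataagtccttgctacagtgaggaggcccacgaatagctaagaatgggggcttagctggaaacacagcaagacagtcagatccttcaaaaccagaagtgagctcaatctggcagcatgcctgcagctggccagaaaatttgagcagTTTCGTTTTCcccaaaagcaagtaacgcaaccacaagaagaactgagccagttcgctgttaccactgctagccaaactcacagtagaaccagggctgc

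Over the 35 genes with a window, 17 (48.6%) held the ISRE core, against 1079 of 27025 genes (3.99%) in the whole RefSeq table. The gamma-activated site TTCNNNGAA, the element bound by STAT dimers, was in 7 of 35 (20%) and in 2582 of 27025 (9.55%). The 10 genes with no entry were Usp18, Dhx58, Zbp1, Oas2, Mx1, Mx2, Rtp4, Ifi27l2a, Parp9 and Parp14. A match describes the letters of a window and does not show binding in these cells.

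The 45 genes were expressed in all groups at widely different levels. Per kilobase of exon, the most abundant in CD8 cells were Sp100, a nuclear body protein (402.6 ± 58.6 CPM per kb, SD, n = 12 libraries), Phf11b (146.7 ± 13.8), Ifi27l2a (93.8 ± 31.6), Slfn1 (79.1 ± 12.9), Ifi35 (74.5 ± 5.09) and the nucleic acid sensor Zbp1 (63.5 ± 9.85). In CD4 cells they were Ifi27l2a (291 ± 72.9 CPM per kb), Sp100 (262 ± 16.7), Slfn1 (157 ± 15.1), Phf11b (119.8 ± 12.2) and Ifitm2 (108.9 ± 37.0). Ifi27l2a and Sp100 did not differ beyond their spread in CD4 cells. Mx2 was lowest in both, at 0.396 CPM per kb in CD8 and 0.731 in CD4 cells. Together the 45 genes took 0.341% to 0.436% of read pairs in CD8 and 0.325% to 0.515% in CD4 libraries.

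The first comparison set CD8 cells of RUX+CSA mice against those of untreated mice, to see what the drug pair changed. The 45 genes moved in both directions. Ifitm2, Ifitm1 and Oas3 rose, and Slfn8, Eif2ak2, Mx1 and Parp14 fell. Thus 3 of 45 genes rose, where 7.94% of all tested genes did, and 4 fell, where 7.73% did. The median change of the 45 was -0.09 on the log2 scale, against -0.02 over all tested genes, and 19 of 45 were above 0. All 3 RUX+CSA pools were below all 3 untreated pools in 17 of 45 genes, against 21.7% of all tested genes, and above them in 5, again against 21.7%. The counts of 3 and 4 lay near the shares of all genes.

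Ifitm2 (chromosome 7, 140954839 to 140955961, mm10) encodes a membrane protein that blocks the entry of enveloped viruses. In CD8 cells it had 20.7, 19.2 and 15.7 CPM in RUX+CSA, 7.89, 8.23 and 12.9 in CSA and 12.0, 12.7 and 10.5 in RUX pools, against 3.51, 3.96 and 5.10 in untreated pools. Each of the 9 treated pools was above each untreated pool, and the RUX+CSA pools were the highest of all. The change with RUX+CSA was the largest of the 45 genes (log2 2.14, SE 0.22, adjusted p = 0.00154), and it passed the threshold with any 1 of the 12 CD8 libraries left out. Ifitm1 (chromosome 7, 140967429 to 140969827), a relative at the cell surface, had 10.6, 8.94 and 10.6 CPM in RUX+CSA, 7.71, 8.48 and 4.34 in CSA and 3.91, 5.41 and 4.36 in RUX pools, against 5.16, 4.36 and 1.86 in untreated pools. Its RUX+CSA pools were above all other CD8 pools, and the change was log2 1.39, SE 0.34, adjusted p = 0.0226. Ifitm3, the member best known for blocking influenza virus in endosomes, had 34.3, 23.3 and 26.7 CPM in RUX+CSA, 12.0, 8.52 and 37.8 in CSA and 6.52, 32.9 and 26 in RUX pools, against 6.85, 1.26 and 16.5 in untreated pools. Its 3 RUX+CSA pools were above the untreated pools, which spread widely, and the change did not pass (log2 1.76, SE 0.85, adjusted p = 0.176). Bst2 encodes tetherin, which holds budding virus at the membrane, and its groups overlapped, at 56.5, 47.9 and 43.6 CPM in RUX+CSA, 41.1, 45.8 and 55.4 in CSA and 29, 45.6 and 47.2 in RUX pools, against 45.8, 35.8 and 42.1 in untreated pools (log2 0.25, SE 0.18, adjusted p = 0.347).

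**Figure D2:**
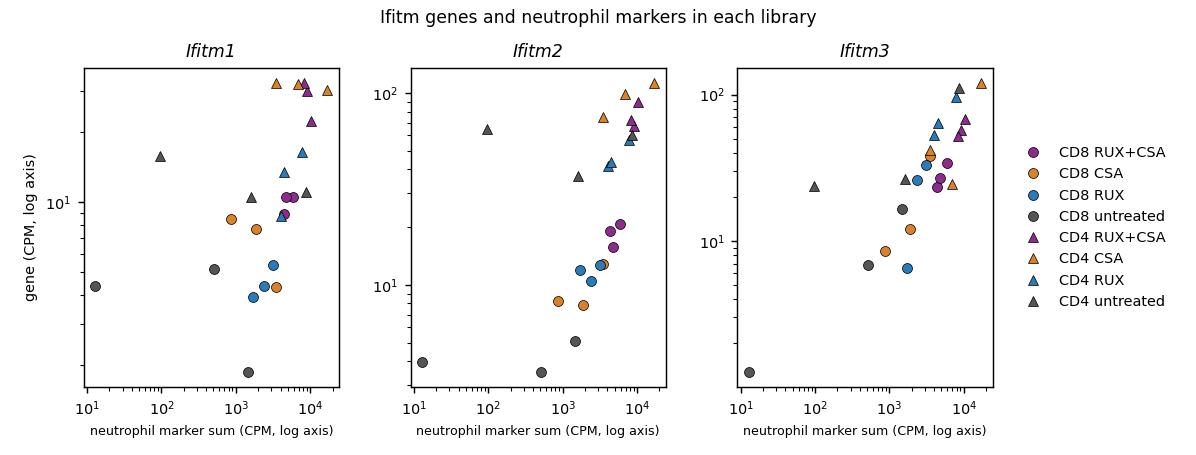
Each point is 1 library, with the summed level of 14 neutrophil markers (CPM, log axis) against the level of Ifitm1, Ifitm2 or Ifitm3 (CPM, log axis). Circles are CD8 and triangles CD4 libraries, and colour gives the treatment. The CD8 RUX+CSA circles lie farthest to the right of the CD8 libraries (4374 to 5899 CPM), and CD8 untreated 2 lies farthest to the left (12.9 CPM).

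The Ifitm genes are also expressed by myeloid cells, and the markers of other cells moved with them. In CD8 cells 5 of 14 neutrophil markers rose with RUX+CSA (median log2 change 2.98), as did 6 of 8 tested erythroid, 5 of 7 tested B cell and 6 of 6 basophil and mast cell markers. Of 11 tested macrophage and monocyte markers, 2 rose (Cd68 and Cd14) and 2 fell (C1qa and C1qb). The sum of all 12 was 628 to 815 CPM in RUX+CSA, against 70.0 to 198 CPM in untreated pools. Cd68, the highest of the markers that passed, had a mean of 41.4 CPM in RUX+CSA and 17.0 CPM in untreated pools. Most of the sum thus came from markers that did not pass. Of 7 tested plasmacytoid dendritic cell markers, Ly6d, Spib and Cox6a2 rose, and of 5 tested NK cell markers 1 rose. The 10 plasmacytoid dendritic cell markers summed to 55.8 to 65.3 CPM in RUX+CSA, against 66.0 to 97.0 CPM in untreated pools (0 and 4 of 10 at 0 in each pool), and the 8 NK cell markers to 398 to 471 CPM in RUX+CSA, against 281 to 313 CPM in untreated pools. T cell markers summed to 9969 to 10883 CPM in RUX+CSA, against 8899 to 9296 CPM in untreated pools. Of these, Cd3d, Cd8b1, Cd5 and Lck rose past the threshold. By pool, in the order of the values of Ifitm2 above, the neutrophil sum was 5899, 4374 and 4770 CPM in RUX+CSA, 1874, 858 and 3453 in CSA and 1701, 3135 and 2378 in RUX pools, against 513, 12.9 and 1472 in untreated pools. Within each of the 4 groups, Ifitm3 followed the order of these sums. Ifitm1 and Ifitm2 did not: Ifitm1 was lowest in the CSA and untreated pools with the highest sums, and Ifitm2 was lowest in untreated 1, not in untreated 2. The mean of the neutrophil, erythroid and B cell markers was then used as a covariate in edgeR. Markers of the other cell types, macrophages and basophils among them, were not part of it. The estimate for Ifitm2 was 1.74 (adjusted p = 0.633) and for Ifitm1 2.43 (adjusted p = 0.633). With this covariate, 0 of the 45 genes and 0 of 12684 genes passed. The covariate and the treatment rise together in these pools, so their shares in the change cannot be told apart.

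The 2'-5'-oligoadenylate synthetases (OAS) make the messenger that turns on RNase L, which cuts RNA. Oas3 (chromosome 5, 120753098 to 120777659) had 93.2, 67.1 and 78.9 CPM in RUX+CSA, 63.1, 77.5 and 48.4 in CSA and 39.4, 57.7 and 57.3 in RUX pools, against 52.8, 51.4 and 49.1 in untreated pools. All RUX+CSA pools were above all untreated pools, which lay close together, and the change was log2 0.63, SE 0.18, adjusted p = 0.0405. It was the least stable of the 7 calls and missed the threshold in 7 of the 12 fits that left out a library. Oas1a had 20.1, 16.7 and 17.8 CPM in RUX+CSA, 17.5, 19.4 and 17.3 in CSA and 7.78, 19.6 and 19.8 in RUX pools, against 21.6, 21.7 and 26.8 in untreated pools. Every treated pool was below every untreated pool, and the change did not pass (log2 -0.37, SE 0.26, adjusted p = 0.343). Oasl2, an OAS-like protein, was low and spread widely, at 9.49, 8.57 and 10.8 CPM in RUX+CSA, 6.59, 9.40 and 18.5 in CSA and 3.09, 19.5 and 14.6 in RUX pools, against 3.87, 2.64 and 8.78 in untreated pools. Oas2 was low too, with a larger but uncertain estimate (log2 1.46, SE 0.53, adjusted p = 0.0805), and Oasl1 had log2 0.05, SE 0.31, adjusted p = 0.92. Of the 5 genes of the family, 1 rose in CD8 RUX+CSA, where 7.94% of all tested genes did, and none fell. Their median log2 change was 0.63.

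Among the sensors, Eif2ak2 (chromosome 17, 78852550 to 78882572) encodes PKR, the kinase that stops translation when it binds double-stranded RNA. It had 30.1, 38.2 and 38.4 CPM in RUX+CSA, 43.5, 43.2 and 56.2 in CSA and 25.4, 49.5 and 40.7 in RUX pools, against 63.2, 58.1 and 68.5 in untreated pools. All 9 treated pools were below all untreated pools, and the change with RUX+CSA was log2 -0.84, SE 0.20, adjusted p = 0.0199. Adar, which edits double-stranded RNA, had 168, 181 and 176 CPM in RUX+CSA, 173, 186 and 164 in CSA and 169, 179 and 187 in RUX pools, against 185, 187 and 187 in untreated pools (log2 -0.11, SE 0.07, adjusted p = 0.326). Zbp1, a sensor of left-handed nucleic acids, had 133, 127 and 118 CPM in RUX+CSA, 138, 169 and 159.7 in CSA and 92.0, 157 and 157 in RUX pools, against 129, 128 and 142 in untreated pools. The groups of Zbp1 overlapped (log2 -0.09, SE 0.16, adjusted p = 0.731). The log2 changes of the RNA helicase sensors with RUX+CSA were -0.14 for Ddx58 (RIG-I), -0.44 for Ifih1 (MDA5) and -0.28 for Dhx58 (LGP2), none past the threshold. Of 6 sensors, 1 fell, where 7.73% of all tested genes did, and none rose. All 6 estimates were below 0, and the share of all tested genes below 0 is not given here.

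Of 9 other antiviral effectors, 1 fell, where 7.73% of all tested genes did, and none rose. Mx1 (chromosome 16, 97447035 to 97462906), a dynamin-like GTPase that blocks influenza viruses in mice with an intact gene, had 20.7, 18.4 and 18.9 CPM in RUX+CSA, 30.7, 41.0 and 21.5 in CSA and 26.7, 27 and 26.5 in RUX pools, against 30.9, 36.1 and 30.3 in untreated pools. Its RUX+CSA pools were below all other CD8 pools, and the change was log2 -0.76, SE 0.19, adjusted p = 0.0222. Ifi27l2a, an interferon-induced membrane protein, had 77.6, 52.4 and 49.0 CPM in RUX+CSA, 66.9, 91.1 and 98.5 in CSA and 29.5, 101 and 105 in RUX pools, against 116, 115 and 92.1 in untreated pools. RUX+CSA pools were again below untreated pools, with a change that did not pass (log2 -0.86, SE 0.39, adjusted p = 0.155). Ifi35 had 105, 105 and 104 CPM in RUX+CSA, 97.5, 109 and 107 in CSA and 85.3, 101 and 105 in RUX pools, against 99.9, 105 and 91.6 in untreated pools and was level across the groups apart from RUX 7. Rsad2 encodes viperin, which makes a chain-ending nucleotide, and had a change of log2 0.52, SE 0.46, adjusted p = 0.456. The other 5 of these genes had log2 changes between -0.65 (Mx2) and 0.04 (Cmpk2). Ifi44 had 3 read pairs in RUX 7, so its level there was at the floor.

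Parp14 (chromosome 16, 35832878 to 35871382) encodes an ADP-ribosyltransferase. It had 119, 126 and 139.7 CPM in RUX+CSA, 148, 171 and 147 in CSA and 125, 172 and 163 in RUX pools, against 172, 203 and 180.3 in untreated pools. All 9 treated pools were below all untreated pools, RUX 8 by less than the digits shown, and the change was log2 -0.54, SE 0.12, adjusted p = 0.0155. Parp9 and its partner Dtx3l, a ubiquitin ligase, overlap on opposite strands, and the counts were made without strand, so their reads cannot be told apart where they overlap. Dtx3l had 184, 161 and 172 CPM in RUX+CSA, 180.5, 229 and 178 in CSA and 152, 197 and 207 in RUX pools, against 196, 211 and 197 in untreated pools (log2 -0.23, SE 0.12, adjusted p = 0.212). Parp9 had a log2 change of -0.09 and Parp12, which stops translation under stress, of -0.50. Of these 4 genes, 1 fell, where 7.73% of all tested genes did, and none rose. All 4 estimates were below 0, and the share of all tested genes below 0 is not given here.

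Slfn8 (chromosome 11, 83002158 to 83020810) belongs to the Schlafen family, which in mice is regulated during T cell development and activation. It had 49.9, 43.4 and 48.8 CPM in RUX+CSA, 75.0, 88.9 and 66.8 in CSA and 39.9, 78.3 and 79.9 in RUX pools, against 94.0, 127 and 82.2 in untreated pools. The RUX+CSA pools were below all untreated and CSA pools, but not below RUX 7, and the change was log2 -1.10, SE 0.24, adjusted p = 0.0164. Slfn1, named for its effect on thymocyte growth, had 132, 119.8 and 126 CPM in RUX+CSA, 158, 205 and 138 in CSA and 165, 140.0 and 149 in RUX pools, against 142, 167 and 122 in untreated pools. Its groups overlapped (log2 -0.20, SE 0.15, adjusted p = 0.369). Samd9l, which restrains poxviruses and cell growth, had 131, 138 and 149 CPM in RUX+CSA, 170.1, 213 and 123 in CSA and 172, 169 and 152 in RUX pools, against 167, 193 and 161 in untreated pools (log2 -0.33, SE 0.16, adjusted p = 0.175). Slfn5 had a log2 change of 0.25. Of these 4 genes, 1 fell, where 7.73% of all tested genes did, and none rose. Slfn, Ifitm, Oas1a, Ifit3 and Mx genes have close copies, so the way reads were counted could shift their levels.

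None of the 3 factors that carry the signal to the genome passed. Stat2, the STAT found only in the response to type I and III interferon, had 67.3, 69.6 and 80.7 CPM in RUX+CSA, 78.1, 94.3 and 88.4 in CSA and 75.5, 91.2 and 95.9 in RUX pools, against 83.1, 90.7 and 94.7 in untreated pools. RUX+CSA pools were below untreated pools (log2 -0.31, SE 0.11, adjusted p = 0.0671). Irf9, the DNA-binding part of ISGF3, had 145, 144 and 130.3 CPM in RUX+CSA, 130.3, 142 and 132 in CSA and 90.7, 138 and 148 in RUX pools, against 143, 126 and 126 in untreated pools. Irf7, which amplifies interferon production, had 82.3, 82.4 and 75.1 CPM in RUX+CSA, 79.4, 93.9 and 73.5 in CSA and 63.7, 84.5 and 81.1 in RUX pools, against 77.1, 85.1 and 79.3 in untreated pools. Both overlapped, with log2 changes of 0.07 for Irf9 and -0.02 for Irf7.

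None of the remaining 10 genes passed in CD8 RUX+CSA. In the ISG15 system, which attaches a ubiquitin-like tag to proteins, log2 changes were 0.21 for Isg15, 0.12 for Usp18, the protease that removes the tag, -0.08 for the ligase Herc6 and -0.25 for Trim25, whose adjusted p was 0.0671. Trim25 had 89.1, 86.4 and 89.6 CPM in RUX+CSA, 91.7, 93.7 and 88.1 in CSA and 89.6, 103 and 88.6 in RUX pools, against 116, 93.7 and 104 in untreated pools, so RUX+CSA pools were below the untreated ones. The IFIT proteins bind foreign RNA ends. Ifit2 had 66.6, 60.5 and 57.0 CPM in RUX+CSA, 71.4, 82.6 and 54.0 in CSA and 73.9, 55.0 and 58.1 in RUX pools, against 61.3, 63.5 and 57.0 in untreated pools, with log2 changes of 0.01 for Ifit2, -0.33 for Ifit1 and -0.13 for Ifit3. Sp100 had 1054, 982 and 942 CPM in RUX+CSA, 902, 1012 and 678 in CSA and 988, 787 and 766 in RUX pools, against 788, 815 and 712 in untreated pools. Its RUX+CSA pools were above its untreated pools, and the change did not pass (log2 0.35, SE 0.15, adjusted p = 0.117). Phf11b had 198, 172 and 148 CPM in RUX+CSA, 178, 188 and 154 in CSA and 157, 178 and 169 in RUX pools, against 187, 167 and 150.2 in untreated pools, and Trim30a 127, 114 and 114 CPM in RUX+CSA, 129, 152 and 127 in CSA and 94.3, 132 and 154 in RUX pools, against 134, 147 and 133 in untreated pools, with log2 changes of 0.03 for Phf11b and -0.23 for Trim30a.

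**Figure D3:**
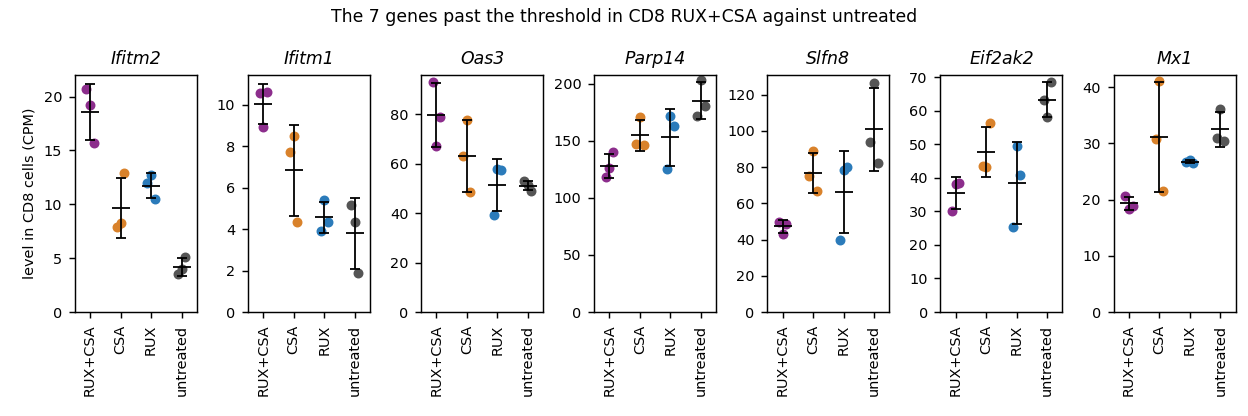
Points are the 3 CD8 pools of each treatment, with the level of the gene in CPM on the vertical axis, which starts at 0. Lines give the mean and SD over 3 pools. Ifitm2, Ifitm1 and Oas3 lie higher in RUX+CSA than in untreated pools, and Parp14, Slfn8, Eif2ak2 and Mx1 lower.

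The count of 7 in CD8 RUX+CSA depended on single libraries and on the groups fitted. It was 13, 4 up and 9 down, with these groups alone. It was 1 without untreated 2, without RUX+CSA 10 or without RUX+CSA 11, and 12 without RUX 7. Without CSA 6 and RUX 7 together, 16 genes passed, 5 up and 11 down, which added Parp12, Ifi27l2a, Sp100, Ifih1, Samd9l, Stat2, Oas1a, Oas2 and Trim25 to the 7. CSA 6 and RUX 7 were chosen because earlier results of these data had set them apart from their groups. The share of all tested genes that passed in each of these other fits is not given here. A higher or lower count therefore cannot be read as particular to the interferon genes.

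Either drug alone gave none of the 45 genes past the threshold in CD8 cells, and no gene of the table either. With CSA, 0% of tested genes and 0 of 45 passed in edgeR, 3 of 45 had an unadjusted p below 0.05, and DESeq2 called 1 and limma voom 0. The smallest p-values were those of Ifitm2 (log2 1.20, SE 0.21, adjusted p = 0.255), Ifitm1 (log2 0.85, SE 0.34, adjusted p = 0.481) and Trim25 (log2 -0.20, SE 0.09, adjusted p = 0.496). With RUX, 0% of tested genes and 0 of 45 passed, 4 of 45 had an unadjusted p below 0.05, and DESeq2 called 1 and limma voom 0. Ifitm2 was first again (log2 1.48, SE 0.22, adjusted p = 0.112), then Eif2ak2 (log2 -0.72, SE 0.20, adjusted p = 0.509) and Slfn8 (log2 -0.62, SE 0.24, adjusted p = 0.784). Medians over the 45 genes were 0.03 with CSA and -0.08 with RUX, against 0.01 and 0.00 over all genes. With RUX, Ifitm2 passed without untreated 3 or CSA 6. Without CSA 6 and RUX 7 together, 4 of 45 passed with CSA and 0 with RUX. For the fits without libraries, the share of all tested genes that passed is not given here. The CSA and RUX contrasts share their untreated pools with the RUX+CSA contrast.

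None of the 45 genes passed when RUX+CSA was set against either drug alone. Against CSA, 0 of 45 passed in edgeR, where 0.0788% of tested genes did, while 6 of 45 had an unadjusted p below 0.05, DESeq2 called 2 and limma voom 0. The first 3 by p were Ifitm2 (log2 0.93, SE 0.21, adjusted p = 0.122), Mx1 (log2 -0.69, SE 0.18, adjusted p = 0.186) and Slfn8 (log2 -0.71, SE 0.24, adjusted p = 0.268). Against RUX, 0 of 45 and 0% of tested genes passed, while 6 of 45 had an unadjusted p below 0.05, DESeq2 called 2 and limma voom 0. Oas3 (log2 0.63, SE 0.18, adjusted p = 0.147), Ifitm1 (log2 1.13, SE 0.34, adjusted p = 0.15) and Ifitm2 (log2 0.66, SE 0.21, adjusted p = 0.164) came first. Without RUX 7, 1 of 45 passed against RUX, and without CSA 6 and RUX 7 together 3 passed against CSA and 9 against RUX. These counts cannot be set against all tested genes, whose share in the same fits is not given here.

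Each drug was also tested over the 6 CD8 pools that had it against the 6 that did not. Ifitm2 passed in both tests and was the only one of the 45 to do so. For CSA, its lowest, median and highest values were 7.89, 14.3 and 20.7 CPM with CSA, against 3.51, 7.79 and 12.7 CPM without CSA (log2 0.93, SE 0.15, adjusted p = 0.0245). For RUX they were 10.5, 14.2 and 20.7 CPM with RUX, against 3.51, 6.49 and 12.9 CPM without RUX (log2 1.21, SE 0.15, adjusted p = 0.0180). The 6 pools overlapped with the other 6 in both tests. Shares of all tested genes that passed were 1.24% up and 1.12% down with CSA, and 0.434% up and 0.126% down with RUX. Without RUX 7, 8 of the 45 passed for CSA, and 3 passed without CSA 6, with no share of all tested genes given for these fits. The call of Ifitm2 for CSA was lost without untreated 2, CSA 4, RUX 8, RUX 9, RUX+CSA 10 or RUX+CSA 11. For RUX the call was lost without CSA 4 or RUX+CSA 10, and 2 genes passed without CSA 6. The RUX by CSA interaction, which asks whether the combination differs from the sum of both drugs, gave 0 of 45 and 0% of tested genes in edgeR, 1 of 45 at an unadjusted p under 0.05 and 0 in DESeq2 and limma voom. Its smallest p-values were those of Slfn1 (log2 -0.49, SE 0.21, adjusted p = 0.999), Ifitm2 (log2 -0.55, SE 0.30, adjusted p = 0.999) and Oasl2 (log2 -1.53, SE 0.87, adjusted p = 0.999).

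In CD4 cells Ifitm1 rose with RUX+CSA, and the other 44 genes did not pass. That is 1 of 45 up, where 1.02% of tested genes were, and 0 down, where 0.744% were. The median change was -0.19 on the log2 scale, against -0.01 over all genes, with 11 of 45 above 0 and 9 at an unadjusted p below 0.05. All 3 RUX+CSA pools were below all 3 untreated pools in 13 of 45 genes and above them in 2, each against 10.9% of all tested genes. Ifitm1 had 30.1, 22.3 and 32.4 CPM in RUX+CSA, 30.3, 32.6 and 32.3 in CSA and 16.4, 8.73 and 13.5 in RUX pools, against 10.6, 15.9 and 11.1 in untreated pools. The 6 pools with CSA were above the 6 without, and RUX pools overlapped with untreated pools. The changes were log2 1.17, SE 0.23, adjusted p = 0.0227 for RUX+CSA and log2 1.34, SE 0.23, adjusted p = 0.0122 for CSA. Fitted with the groups of each comparison alone, neither passed (adjusted p = 0.0578 for RUX+CSA and 0.0571 for CSA in edgeR). Without untreated 13, untreated 15, RUX+CSA 22 or RUX+CSA 24 the RUX+CSA call was lost, and 2 genes passed without untreated 14. The next gene by p was Ifit2 (log2 -0.62, SE 0.17, adjusted p = 0.0726).

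Ifitm1 also rose with CSA alone in CD4 cells, as the only one of the 45 past the threshold (1% of tested genes rose and 0.478% fell). Another 10 of the 45 had an unadjusted p below 0.05. Ifitm2 had 67.4, 89.2 and 72.5 CPM in RUX+CSA, 113, 75.3 and 98.5 in CSA and 57.0, 41.5 and 43.6 in RUX pools, against 37.0, 64.5 and 60.0 in untreated pools. All CSA pools were above all untreated pools, with a change that did not pass (log2 0.83, SE 0.21, adjusted p = 0.0781). Ifitm3 had 57.1, 68.0 and 52.2 CPM in RUX+CSA, 121, 41.9 and 24.4 in CSA and 95.6, 52.6 and 63.9 in RUX pools, against 26.3, 23.6 and 111 in untreated pools, and its groups overlapped. The call of Ifitm1 was lost without CSA 18, the library that was low in most other genes of the 45, and 2 genes passed without untreated 14 or CSA 17. With the neutrophil, erythroid and B cell markers as a covariate in edgeR, the Ifitm1 estimate was 1.60 for CSA (adjusted p = 0.0360). It was 1.52 for RUX+CSA (adjusted p = 0.136). Of 14 neutrophil markers, 0 passed in edgeR with RUX+CSA (1 at an unadjusted p below 0.05) and 0 with CSA (1 at an unadjusted p below 0.05), with median log2 changes of 1.44 and 1.59.

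RUX alone gave none of the 45 genes past the threshold in CD4 cells. In edgeR 0 of 45 and 0% of tested genes passed, 1 of 45 had an unadjusted p below 0.05, and DESeq2 and limma voom called 0. The first 3 by p were Irf9 (log2 0.34, SE 0.16, adjusted p = 1), Ifi35 (log2 0.20, SE 0.11, adjusted p = 1) and Parp9 (log2 0.22, SE 0.14, adjusted p = 1), all with higher means in RUX pools. RUX and untreated pools overlapped for Parp9, and did not for Irf9 and Ifi35. Irf9 had 166, 172 and 164 CPM in RUX+CSA, 152, 170.2 and 98.5 in CSA and 201, 183 and 205 in RUX pools, against 166, 133 and 166 in untreated pools, and Stat2 had 96.0, 77.3 and 91.6 CPM in RUX+CSA, 83.4, 95.8 and 67.4 in CSA and 106, 90.2 and 123 in RUX pools, against 98.3, 91.3 and 110.3 in untreated pools. For Irf9 the 3 RUX pools were above the other 9 CD4 pools, while for Stat2 they overlapped with the untreated pools. RUX+CSA against CSA gave 0 of 45 in edgeR, against 0.281% of tested genes, 3 at an unadjusted p under 0.05 and 0 in DESeq2 and limma voom. Slfn1 (log2 -0.25, SE 0.09, adjusted p = 0.313), Mx1 (log2 -0.73, SE 0.27, adjusted p = 0.35) and Ifit2 (log2 -0.39, SE 0.17, adjusted p = 0.449) came first. Ifitm1 was higher with RUX+CSA than with RUX (log2 1.13, SE 0.23, adjusted p = 0.0363), 1 of 45 where 0.577% of tested genes rose and 0.205% fell. That call was lost without CSA 17, RUX 20, RUX 21, RUX+CSA 22 or RUX+CSA 24, and 2 genes passed without CSA 18. In this comparison all 3 RUX+CSA pools were below all 3 RUX pools in 19 of 45 genes and above them in 2. The share of all tested genes with such a separation was not counted here, so 19 cannot be set against it.

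**Figure D4:**
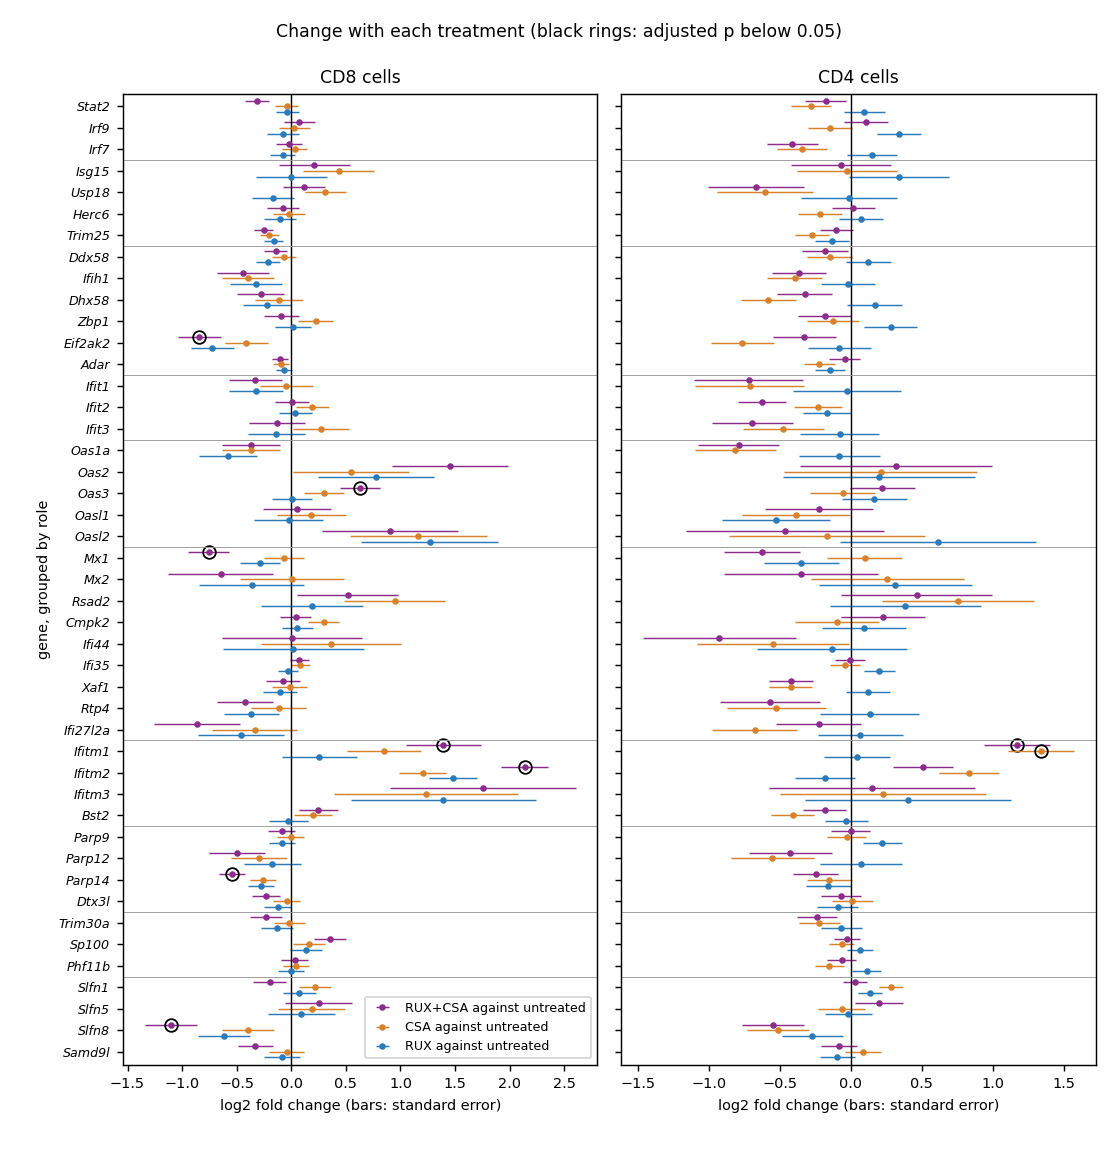
Points give the fitted log2 fold change of each gene with RUX+CSA, CSA or RUX against untreated pools, and bars the standard error, in CD8 cells on the left and CD4 cells on the right. Black rings mark an adjusted p below 0.05. Of the 9 rings, 7 are RUX+CSA in CD8 cells, and both in CD4 cells belong to Ifitm1.

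The comparison with most calls in CD4 cells set the 6 pools with CSA against the 6 without. Ifitm1 and Ifitm2 rose, and Xaf1, Dhx58, Oas1a and Irf7 fell, so 2 of 45 were up, where 3.76% of tested genes were, and 4 were down, where 3.39% were. The lowest, median and highest values of Ifitm1 were 22.3, 31.3 and 32.6 CPM with CSA, against 8.73, 12.3 and 16.4 CPM without CSA (log2 1.24, SE 0.17, adjusted p = 0.000680). Those of Ifitm2 were 67.4, 82.3 and 113 CPM with CSA, against 37.0, 50.3 and 64.5 CPM without CSA (log2 0.76, SE 0.15, adjusted p = 0.0110). Both genes had no overlap between the 6 pools with CSA and the 6 without. Xaf1, an antagonist of the apoptosis inhibitor XIAP, had 36.8, 52.2 and 62.0 CPM with CSA, against 60.8, 71.5 and 80.3 CPM without CSA (log2 -0.49, SE 0.11, adjusted p = 0.0181). Dhx58 had 18.1, 28.9 and 35.5 CPM with CSA, against 33.0, 39.8 and 48.2 CPM without CSA (log2 -0.54, SE 0.14, adjusted p = 0.0311). Oas1a had 11.4, 21.9 and 29.8 CPM with CSA, against 29.7, 34.7 and 49.8 CPM without CSA (log2 -0.76, SE 0.20, adjusted p = 0.0395), and Irf7 55.7, 76.5 and 91.1 CPM with CSA, against 86.6, 108 and 126 CPM without CSA (log2 -0.45, SE 0.13, adjusted p = 0.0458). All 4 genes that fell overlapped between the pools with and without CSA, and CSA 18 held the lowest value of each.

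The calls of Ifitm1, Ifitm2 and Xaf1 held with any 1 library left out, while those of Dhx58, Irf7 and Oas1a were lost in 6, 8 and 9 of 12 such fits. Without CSA 18, Dhx58 (log2 -0.44, adjusted p = 0.0607) and Irf7 (log2 -0.35, adjusted p = 0.0652) did not pass in edgeR, while Oas1a still did. The count of 6 was 3 without untreated 15, RUX 19, RUX 20, RUX+CSA 23 or RUX+CSA 24. Irf7 (chromosome 7, 141263183 to 141266424) had 77.8, 75.1 and 73.5 CPM in RUX+CSA, 91.1, 90.6 and 55.7 in CSA and 119, 101 and 115 in RUX pools, against 88.9, 86.6 and 126 in untreated pools. Oas1a had 25.1, 18.1 and 21.5 CPM in RUX+CSA, 29.8, 22.2 and 11.4 in CSA and 36.3, 35.3 and 34.1 in RUX pools, against 32.5, 29.7 and 49.8 in untreated pools. In both genes the RUX+CSA pools lay below the untreated pools, and the RUX pools did not. RUX as a main effect gave 0 of 45 in edgeR, against 0.25% of tested genes, 3 at an unadjusted p under 0.05 and 0 in DESeq2 and limma voom, led by Mx1 (log2 -0.54, SE 0.19, adjusted p = 0.346), Irf9 (log2 0.30, SE 0.11, adjusted p = 0.389) and Ifit2 (log2 -0.28, SE 0.12, adjusted p = 0.457). The CD4 interaction gave 0 of 45 and 0% of tested genes in edgeR, 2 at an unadjusted p under 0.05 and 0 in DESeq2 and limma voom. Slfn1 (log2 -0.39, SE 0.12, adjusted p = 0.797), Adar (log2 0.33, SE 0.15, adjusted p = 0.995) and Trim25 (log2 0.31, SE 0.17, adjusted p = 0.995) came first.

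The genes that carried the CD8 result stood as follows in CD4 cells. Eif2ak2 had 37.3, 38.0 and 37.4 CPM in RUX+CSA, 32.1, 32.1 and 18.9 in CSA and 40.9, 51.1 and 41.7 in RUX pools, against 51.8, 31.7 and 58.1 in untreated pools, and Slfn8 had 76.0, 90.4 and 93.8 CPM in RUX+CSA, 85.5, 123 and 57.8 in CSA and 111, 85.7 and 118 in RUX pools, against 119.8, 137 and 124 in untreated pools. Mx1 had 13.7, 8.62 and 12.5 CPM in RUX+CSA, 16.7, 24.1 and 16.7 in CSA and 10.6, 12.1 and 19.5 in RUX pools, against 19.1, 14.0 and 20.6 in untreated pools. All 3 RUX+CSA pools of Slfn8 and Mx1 were below the untreated pools in CD4 cells too, without passing (log2 -0.55, SE 0.22, adjusted p = 0.221 for Slfn8, log2 -0.63, SE 0.27, adjusted p = 0.241 for Mx1). Parp14 had 138, 144 and 137 CPM in RUX+CSA, 145, 195 and 109 in CSA and 132, 143 and 171 in RUX pools, against 169.8, 159 and 169.5 in untreated pools, and Oas3 had 96.9, 79.4 and 94.4 CPM in RUX+CSA, 99.7, 76.8 and 46.3 in CSA and 93.2, 81.3 and 85.6 in RUX pools, against 84.3, 59.5 and 88.3 in untreated pools. The RUX+CSA pools of Parp14 were also below its untreated pools, without passing, while those of Eif2ak2 overlapped with untreated pools. Oas3 overlapped between RUX+CSA and untreated pools in CD4 cells (log2 0.22, SE 0.23, adjusted p = 0.678). The IFIT genes were below untreated in all 3 RUX+CSA pools of CD4 cells. Ifit2 had 38.5, 34.4 and 25.4 CPM in RUX+CSA, 45, 44.1 and 40.1 in CSA and 51.3, 39.9 and 43.6 in RUX pools, against 51.4, 40.8 and 59.8 in untreated pools, Ifit1 had a change of log2 -0.72, SE 0.38, adjusted p = 0.383 and Ifit3 of log2 -0.70, SE 0.28, adjusted p = 0.225. The RUX+CSA effect itself was then compared between the cell types. None of the 45 genes passed in edgeR (0.0223% of tested genes did), 3 had an unadjusted p below 0.05, and DESeq2 called 1 and limma voom 0. The difference, CD8 minus CD4, was log2 1.64, SE 0.31, adjusted p = 0.0566 for Ifitm2, log2 0.64, SE 0.23, adjusted p = 0.254 for Ifit2 and log2 0.39, SE 0.17, adjusted p = 0.306 for Sp100. That of Ifitm2 passed without CD8 CSA 6, CD8 RUX 7, CD4 untreated 13, CD4 CSA 16 or CD4 RUX 19.

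CD8 cells were lower than CD4 cells in many of these genes without treatment, with the largest difference in Ifitm2. Of 45 genes, 10 were lower and 3 higher in CD8 cells, where 10% of tested genes were lower and 7.2% higher, and the median difference was -0.33 on the log2 scale against 0.01 over all genes. Ifitm2 had 3.51, 3.96 and 5.10 CPM in CD8 pools, against 37.0, 64.5 and 60.0 in CD4 pools (log2 -3.68, SE 0.25, adjusted p = 1.76e-09). Ifitm1 had 5.16, 4.36 and 1.86 CPM in CD8 pools, against 10.6, 15.9 and 11.1 in CD4 pools (log2 -1.72, SE 0.31, adjusted p = 0.000467). Neither of these 2 genes overlapped between the cell types. Ifitm3 had 6.85, 1.26 and 16.5 CPM in CD8 pools, against 26.3, 23.6 and 111 in CD4 pools with no overlap between the cell types (log2 -2.68, SE 0.87, adjusted p = 0.0411). The 9 of 12 macrophage and monocyte markers that were lower in CD8 cells (median log2 difference -2.93), and the neutrophil markers (1 of 14 lower, median -2.49), moved the same way, and their part in these differences was not tested. In CD4 untreated 14, with a neutrophil sum of 96.9 CPM and 5 of 14 markers at 0, Ifitm2 was 64.5 CPM, the highest of the 6 untreated pools. The macrophage and monocyte sum was 566 CPM in that library and 329 and 1350 CPM in CD4 untreated 13 and 15.

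The Schlafen genes differed as well. Slfn5 had 9.83, 14.7 and 9.32 CPM in CD8 pools, against 48.0, 47.3 and 49.4 in CD4 pools (log2 -2.10, SE 0.26, adjusted p = 1.17e-05), and its exons overlap with Slfn5os on the opposite strand. Slfn1 had 142, 167 and 122 CPM in CD8 pools, against 255, 277 and 275 in CD4 pools (log2 -0.91, SE 0.12, adjusted p = 1.99e-05). No pool of one cell type reached the other in either gene. Ifih1 had 56.8, 65.3 and 64.3 CPM in CD8 pools, against 132, 184 and 163 in CD4 pools (log2 -1.36, SE 0.24, adjusted p = 0.000477). Ifi27l2a had 116, 115 and 92.1 CPM in CD8 pools, against 274, 282 and 319 in CD4 pools (log2 -1.44, SE 0.37, adjusted p = 0.0124), a gene that overlaps with Ifi27 on the opposite strand. Both were lower in every CD8 pool. Parp12 (log2 -1.11, SE 0.30, adjusted p = 0.0135), Ifi44 (log2 -2.45, SE 0.65, adjusted p = 0.0124) and Oasl2 (log2 -2.46, SE 0.73, adjusted p = 0.0258) were lower too. Higher in CD8 cells were Trim25 (log2 0.45, SE 0.10, adjusted p = 0.00395), Sp100 (log2 0.44, SE 0.12, adjusted p = 0.0128) and Mx1 (log2 0.86, SE 0.24, adjusted p = 0.0144). The count of 13 was 8 without CD8 untreated 1 and up to 17 without another library.

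**Figure D5:**
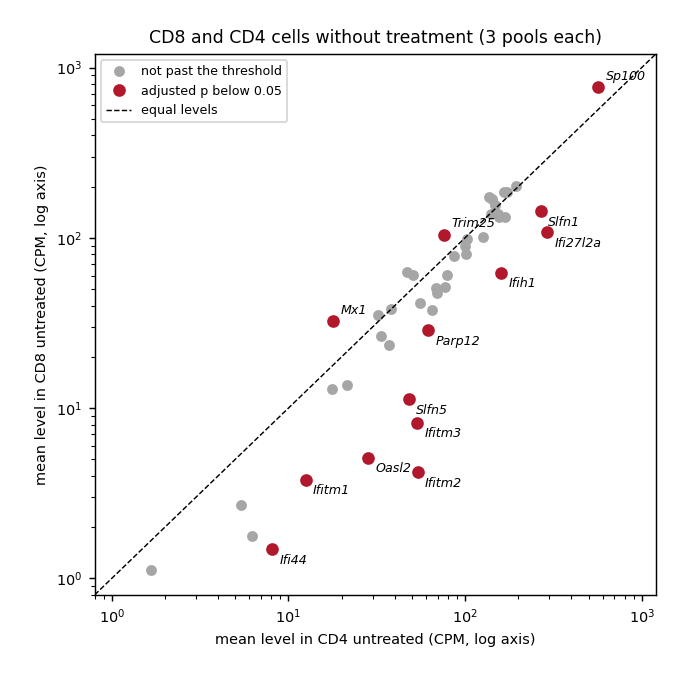
Each point is 1 of the 45 genes, with its mean level in CD8 untreated pools on the vertical and in CD4 untreated pools on the horizontal axis (CPM, log axes, 3 pools each). Named red points passed the threshold, and the dashed line marks equal levels. Of 13 red points, 10 lie below the line and 3, Sp100, Trim25 and Mx1, above it.

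Over all treatments, 24 of 45 genes were lower and 8 higher in CD8 cells, where 26.4% of tested genes were lower and 27.4% higher. The lowest, median and highest values of Ifitm2 were 3.51, 11.2 and 20.7 CPM in CD8 libraries, against 37.0, 66.0 and 113 in CD4 libraries (log2 -2.76, SE 0.12, adjusted p = 8.94e-14). Slfn1 had 119.8, 141 and 205 CPM in CD8 libraries, against 255, 284 and 354 in CD4 libraries (log2 -0.99, SE 0.06, adjusted p = 2.31e-11), and Slfn5 had 8.16, 12.3 and 19.3 CPM in CD8 libraries, against 38.5, 48.7 and 68.3 in CD4 libraries (log2 -1.99, SE 0.13, adjusted p = 9.97e-11). All 12 CD8 libraries were below all 12 CD4 libraries in these 3 genes. Ifih1 had 29.3, 53.2 and 65.8 CPM in CD8 libraries, against 82.2, 139 and 184 in CD4 libraries, again with no overlap (log2 -1.45, SE 0.12, adjusted p = 5.99e-09). Sp100 had 678, 858 and 1054 CPM in CD8 libraries, against 508, 561 and 623 in CD4 libraries (log2 0.61, SE 0.06, adjusted p = 2.76e-08), with all CD8 libraries above all CD4 libraries, as for Trim25 (log2 0.43, SE 0.05, adjusted p = 5.91e-07). Ifitm1 (-1.73), Ifi27l2a (-1.64) and Parp12 (-1.12) were lower in CD8 cells on the log2 scale and Ifit2 was higher (0.58), with overlap between the cell types.

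The rest of the pathway was read from other lists. None of the 20 type I and III interferon genes in the table had enough counts to be tested. Ifnb1 had 0 counts in all libraries, which allows up to the floor of 3 counts in each, and the largest total over the 3 pools of a group was 6 counts, for Ifnz in CD8 untreated pools. Jak1, a kinase of the receptor that ruxolitinib inhibits, rose with RUX+CSA in CD8 cells. It had 1951 ± 115 CPM with RUX+CSA and 1456 ± 17.9 CPM in untreated pools (SD, n = 3 each, log2 0.41, SE 0.12, adjusted p = 0.0346). Of 7 genes on a list of negative regulators, 0 passed in edgeR and 3 had an unadjusted p below 0.05. That list also holds Nlrc5 and Isg20, and Isg20 is counted among the other interferon-stimulated genes below as well. Socs1, which blocks JAK kinases and is induced by them, had 32.9 ± 3.94 CPM with RUX+CSA and 57.3 ± 12.6 CPM in untreated CD8 pools (SD, n = 3 each). Its change did not pass. Of 11 genes that sense nucleic acids or induce interferon, 1 rose and 1 fell, again near the 7.94% and 7.73% of all tested genes. Irf3, the factor that starts interferon transcription, had 92.7 ± 0.643 CPM with RUX+CSA and 73.1 ± 4.61 CPM in untreated pools (SD, n = 3 each, log2 0.33, SE 0.08, adjusted p = 0.0174). Tlr7, an endosomal RNA receptor, had 0.929 ± 0.171 CPM with RUX+CSA and 2.5 ± 1.03 CPM in untreated pools (SD, n = 3 each, log2 -1.42, SE 0.35, adjusted p = 0.0232).

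Of 66 other interferon-stimulated genes, 4 rose and 4 fell in CD8 RUX+CSA, counts near the 7.94% and 7.73% of all tested genes. Those with the smallest p were Oas1b (log2 -0.78, SE 0.14, adjusted p = 0.00809), Parp3 (log2 0.61, SE 0.11, adjusted p = 0.00876), the cytidine deaminase Apobec3 (log2 -0.40, SE 0.08, adjusted p = 0.00932), Trim14 (log2 -0.55, SE 0.13, adjusted p = 0.0190) and Trim30d (log2 -0.88, SE 0.22, adjusted p = 0.0225). Of 23 GTPases and factors best known from the interferon gamma response, 2 fell, near the 7.73% of all tested genes, and none rose, with a median log2 change of -0.43. They were the guanylate-binding genes Gbp9 (log2 -0.75, SE 0.14, adjusted p = 0.00880) and Gbp11 (log2 -1.91, SE 0.49, adjusted p = 0.0273). In CD4 cells, Parp3 (log2 0.69, SE 0.12, adjusted p = 0.0103) and Ms4a4c (log2 0.98, SE 0.19, adjusted p = 0.0269) rose with RUX+CSA and Trim30d (log2 -0.92, SE 0.17, adjusted p = 0.0154) fell. With CSA alone, Ms4a4c (log2 0.94, SE 0.19, adjusted p = 0.0311) and Epsti1 (log2 0.51, SE 0.12, adjusted p = 0.0450) rose and Lgals3bp (log2 -0.54, SE 0.11, adjusted p = 0.0234) fell. Without treatment, 17 of the 66 were lower and 5 higher in CD8 than in CD4 cells, as were 8 and 1 of the 23, where 10% of tested genes were lower and 7.2% higher.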

How the data were processed

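The authors deposited 1 table of unscaled read counts (whole read pairs for each gene) that covers all 24 libraries. Per the file headers, featureCounts 2.0.3 counted pairs over exons by gene, with no strand option and none for multi-mapped reads. Alignment used STAR on mm10, per the submitters' processing notes, with no version given in the sources used here. Libraries were made with a SMART-Seq mRNA kit, per the labels' protocols. No sample column was left unused and no row lacked a gene name.

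The counts were scaled by the TMM method (trimmed mean of M values) in edgeR 4.0.16 under R 4.3.3, filtered with filterByExpr and tested gene by gene with the robust quasi-likelihood F test, two-sided. Each cell type had 1 fit over its 12 libraries (12684 genes in CD8, 13175 in CD4), and comparisons across cell types used all 24 (13476 genes). P-values were adjusted by the Benjamini-Hochberg method over all tested genes of a comparison, with a threshold of 0.05, and 19 comparisons were made. CPM use TMM-scaled totals and errors are SDs over pools. The floor of 3 counts reflects counting error alone, because no molecular identifiers separate copies of a molecule. Pools are separate groups of mice per the labels, but nothing states how they were spread over preparation days, so p-values measure the spread between these pools. The fit was tested on simulated data. Their spread was near that fitted in CD8 libraries (coefficient of variation 0.196) and below that in CD4 libraries (0.279). No outlying pool was simulated. Alternatives were DESeq2 1.42.0, limma voom 3.58.1, other scaling, no filter, a non-robust fit, fits of 2 groups only, a marker covariate and leaving out libraries.

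The 45 genes and the other lists were chosen with earlier results of these data known. In each comparison every one of the 45 past the threshold is named, or the 10 with the smallest p where more pass, or 3 where none does. Genes of the other pathway and interferon lists are named where past the threshold against untreated, at most 5 a list. Most markers of cell types are given as counts or sums and are not named. Some others, such as Socs1 and Ifnb1, are named without having passed. Promoter windows are from RefSeq, build GRCm38.p6.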

Additional observations from a re-analysis of the deposited data

How the results depend on the processing

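No paired analysis was possible because the pool numbers are not shared between groups. No estimate changed sign past the threshold under any alternative. In CD8 cells, the count for RUX+CSA against untreated was 13 with these groups alone, 16 without CSA 6 and RUX 7 and 0 with the marker covariate, and 1 to 12 with 1 library left out. For CSA against untreated it was 1 in DESeq2 and 4 without both libraries (0 to 0 with 1 left out), and for RUX 1 with no filter and 1 in DESeq2 (0 to 1). RUX+CSA against CSA gave 2 in DESeq2 and 3 without both libraries (0 to 0), and against RUX 2 and 9 (0 to 1). The CSA main effect gave 2 with no filter, 3 in DESeq2 and 14 without both libraries (0 to 8), and the RUX main effect 4 and 4 in the last pair of settings (0 to 2). In CD4 cells, RUX+CSA gave 2 with no filter, 2 in DESeq2, 0 with these groups alone and 0 with the covariate (0 to 2). CSA gave 4 in DESeq2, 0 with these groups alone and 2 with the covariate (0 to 2). RUX+CSA against RUX gave 3 in DESeq2 and 0 in the non-robust fit (0 to 2), and the CSA main effect 9 in DESeq2 and 4 with no filter (3 to 8). The 13 genes between untreated CD8 and CD4 cells became 8 to 17, the 32 over treatments 31 to 36, and the difference between cell types in the response to RUX+CSA 1 in DESeq2 and 1 without both libraries (0 to 1). The causes were not tested. For most of these settings the share of all tested genes that passed is not given here. Changes in these counts therefore cannot be read as particular to the interferon genes. Ifi44 was at the floor in CD8 RUX 7, with 3 counts. The lowest counts of Mx2 and Oas2 in a CD8 library were 8 and 17, low but above the floor. At such counts depth limits what can be detected.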
